A study of Mus musculus with 4 samples.

Results

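The 9 genes described here were *Cst3*, *Apoe*, *Mrc1*, *C1qa*, *C1qb*, *C1qc*, *Trem2*, *Tyrobp* and *Ctss*, taken by symbol from the 21933 genes counted in a single-nucleus RNA sequencing (snRNA-seq) study of the mouse cerebral cortex. They were chosen by their levels and genotype differences in earlier results of the same nuclei. There *Cst3* and *Mrc1* in microglia and *Apoe* in oligodendrocyte precursor cells (OPCs) differed between genotypes. Those 3 differences are given below as descriptions without a p-value. Where counts of called genes include them, nothing is read from the calls. Nuclei came from the cortex of the right hemisphere of adult untreated male C57Bl/6J mice. There were 2 Control libraries (CrT+/y, wild-type littermates) and 2 CrT-KO libraries (CrT-/y, with part of the X-linked creatine transporter gene *Slc6a8* deleted in the whole body), each from 1 animal. The deletion was carried by every cell of the CrT-KO animals, so an effect within a cell type could not be told apart from an effect of the surrounding tissue.

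Microglia are the resident macrophages of the brain parenchyma. They make most of the brain's complement C1q, a protein assembled from A, B and C chains (*C1qa*, *C1qb*, *C1qc*) that tags synapses and debris. They sense lipids and debris through the receptor TREM2, which signals through the adaptor TYROBP (DAP12), and they degrade engulfed proteins in lysosomes with cathepsins such as cathepsin S (*Ctss*). Cystatin C (*Cst3*) is a secreted inhibitor of those cathepsins, apolipoprotein E (*Apoe*) carries cholesterol between cells and binds TREM2, and the mannose receptor CD206 (*Mrc1*) is an endocytic receptor that marks perivascular and meningeal macrophages more than microglia.

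On the mouse build GRCm38 with the GENCODE vM21 annotation, the 3 C1q genes lay beside each other on the minus strand of chromosome 4, in the order *C1qb* (136880129 to 136886187), *C1qc* (136889804 to 136893065) and *C1qa* (136895917 to 136898803), within 18675 bases. *Cst3* (148871722 to 148875692, minus strand) and *Mrc1* (14229392 to 14332057, plus strand) lay on chromosome 2. *Apoe* (19696109 to 19699188, minus strand) and *Tyrobp* (30413760 to 30417585, plus strand) lay on chromosome 7, *Ctss* on chromosome 3 (95526786 to 95556403, plus strand) and *Trem2* on chromosome 17 (48346401 to 48354147, plus strand). All were protein-coding, and none overlapped another gene in the count tables. *Mrc1* spanned 102666 bases, against 2887 to 29618 bases for the other 8. Since reads from the whole gene body were counted, comparisons of level between genes are also given per kilobase (kb) of gene body or of exon.

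The promoters of members are shown because several are read mainly in microglia or macrophages, and the motif of PU.1 (*Spi1*), a regulator of that lineage, can be read in them. *Apoe* and *Cst3* are not particular to that lineage, and microglia held 3.77% and 19.6% of their UMIs. RefSeq (GRCm38.p6) gave a promoter for 7 of the 9 genes, all but *C1qa* and *Tyrobp*. The core letters GAGGAA, searched on both strands (TTCCTC on the other), occurred in the 250 bases upstream of the gene start in 7 of these 7, with 9 matches in all. Of all 32851 promoters of that length, 7639 (23.3%) held the motif. This is a description of letters and not of binding. The 4 upstream windows that lay wholly outside the annotated gene are printed 5′ to 3′ on the gene's own strand, with the motif in capitals. They were C1qb at chr4:136886201-136886450, minus strand, Ctss at chr3:95526536-95526785, plus strand, Trem2 at chr17:48346151-48346400, plus strand, and Apoe at chr7:19699189-19699438, minus strand. The match started 30, 164, 40 and 250 bases before the gene start, respectively.
C1qb: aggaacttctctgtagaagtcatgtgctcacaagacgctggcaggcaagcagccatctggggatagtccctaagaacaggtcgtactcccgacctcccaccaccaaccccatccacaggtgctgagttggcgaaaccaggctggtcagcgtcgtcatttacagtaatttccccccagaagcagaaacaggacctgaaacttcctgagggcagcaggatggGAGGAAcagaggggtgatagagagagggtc
Ctss: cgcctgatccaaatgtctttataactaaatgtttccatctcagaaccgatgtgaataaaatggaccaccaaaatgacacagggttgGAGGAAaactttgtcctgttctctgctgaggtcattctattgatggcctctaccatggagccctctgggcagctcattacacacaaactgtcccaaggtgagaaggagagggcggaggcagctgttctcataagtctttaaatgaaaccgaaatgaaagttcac
Trem2: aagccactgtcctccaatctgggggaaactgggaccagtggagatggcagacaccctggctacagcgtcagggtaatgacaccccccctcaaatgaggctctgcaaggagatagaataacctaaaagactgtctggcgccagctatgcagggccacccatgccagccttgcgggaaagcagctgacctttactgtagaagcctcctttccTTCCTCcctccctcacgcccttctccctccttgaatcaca
Apoe: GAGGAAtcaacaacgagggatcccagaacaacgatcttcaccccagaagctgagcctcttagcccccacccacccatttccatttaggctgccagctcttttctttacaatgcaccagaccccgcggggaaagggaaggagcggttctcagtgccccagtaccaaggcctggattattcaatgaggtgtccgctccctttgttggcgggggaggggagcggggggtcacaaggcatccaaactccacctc

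Across the 4 libraries, 35694 nuclei carried 51507483 to 65240843 unique molecular identifiers (UMIs, each a counted RNA molecule) per library, and 34458 nuclei were kept after removal of doublets. Of 35598 distinct barcodes, 96 occurred in 2 libraries. Nuclei were clustered without the 9 genes, so that their levels did not make the groups, and 29357 nuclei (85.2%) fell in clusters named from marker genes. *Slc6a8* had 271 and 258 UMIs in the named nuclei of the Control libraries and 79 and 63 in those of the CrT-KO libraries (log2 fold change -1.93, SE 0.17, adjusted p = 0.0112 by edgeR), in the direction of the labels.

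The microglia cluster held 2145 nuclei (443, 577, 555 and 570 per library, in the order Control 1, Control 2, CrT-KO 1, CrT-KO 2, which is kept throughout) and was led by *Inpp5d*, *Siglech* and *Slco2b1*. All 26 microglia markers were measured, and their summed level was 20768 to 23060 CPM (UMIs of a gene scaled to 1000000 UMIs of the population) in each library. A cluster of 85 nuclei (23, 27, 20 and 15) was led by *F13a1*, the MHC class II genes *H2-Ab1* and *H2-Eb1*, *Cd74* and *Cd163*. Its summed macrophage markers reached 8457 to 10856 CPM, against 317 to 367 CPM in the microglia cluster, and *Tmem119*, *P2ry13* and *Sall1*, which define microglia, had no UMI there. Of the 26 microglia markers 18 to 21 had UMIs in it, and they summed to 10050 to 12375 CPM, as much as its macrophage markers and below the microglia cluster. It is called macrophages below. Its T-cell markers summed to 264 to 753 CPM, against 1.90 to 6.54 CPM in microglia. Microglial and macrophage nuclei held few molecules, with a median of 879.5 to 1033 UMIs per nucleus in microglia and 7065.5 to 8509 in excitatory neurons, and this depth limits the precision of every value below.

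In microglia *Ctss* was the member with the highest CPM. It had 643, 708, 586 and 727 CPM (284, 433, 345 and 383 UMIs), and a UMI was found in 42.2 to 49.9% of microglia. *Cst3* came next in the Control libraries, with 546, 595, 333 and 332 CPM. The 3 C1q genes followed at 62.6 to 188 CPM, *Trem2* at 70.2 to 98.7 CPM, *Tyrobp* at 49.3 to 60.5 CPM, *Apoe* at 32.3 to 71.4 CPM and *Mrc1* at 22.8 to 40.8 CPM. Within each library *C1qc* was above *C1qa*, and the range of *Apoe* overlapped those of *Trem2*, *Tyrobp* and *Mrc1*. Per kb of gene body, a level averaged over the 4 libraries, the order was *Cst3* (114 CPM per kb), *C1qc* (45.0), *C1qa* (33.4), *C1qb* (24.1), *Ctss* (22.5), *Apoe* (17.3), *Tyrobp* (14.0), *Trem2* (10.5) and *Mrc1* (0.32). *Ctss* therefore led by CPM and *Cst3* per kb of gene body. Per kb of exon *Ctss* (490 CPM per kb) was above *Cst3* (357), so the order depended on the length used.

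Macrophages had another profile. *Mrc1* had 4837, 4839, 3498 and 3539 CPM there, and its UMIs numbered 111, 165, 79 and 59. *Apoe* had 2745, 1994, 2479 and 1200 CPM from 63, 68, 56 and 20 UMIs. Both were higher in every macrophage library than in any microglia library. *Ctss* had 310 to 566 CPM in macrophages and was below every microglia library. *Cst3* had 349, 528, 443 and 1020 CPM in macrophages from only 8 to 18 UMIs per library. UMIs of *Cst3* outnumbered those of *Apoe* 8.20 to 1 in microglia (976 against 119), while macrophages held 0.26 *Cst3* UMIs for each of *Apoe* (53 against 207).

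**Figure D1:**
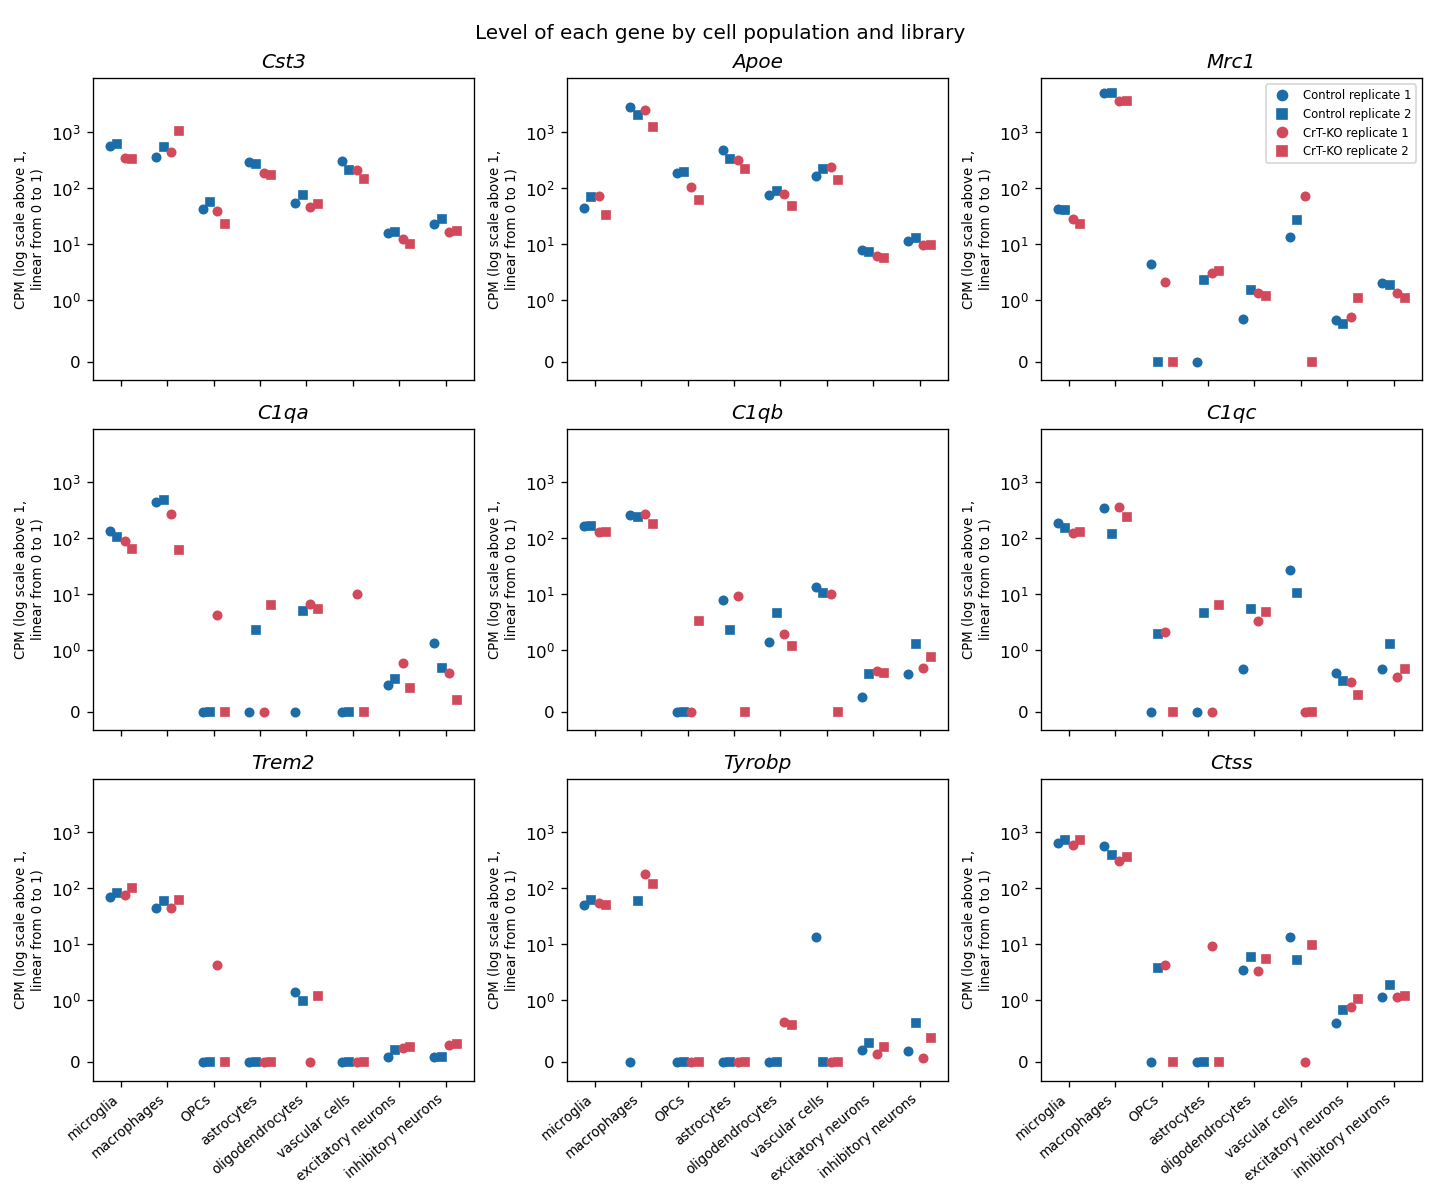
CPM of each of the 9 genes (y axis, log scale above 1 and linear from 0 to 1) in 8 cell populations (x axis), with 1 point per library, coloured by genotype and shaped by replicate. Mrc1 peaks in macrophages at 3498 to 4839 CPM, Ctss in microglia at 586 to 727 CPM, and Cst3 and Apoe are found in every population.

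Outside microglia and macrophages the members differed in how widely they were found. *Ctss*, *Trem2*, *Tyrobp* and the C1q genes were low per unit of RNA, at 0 to 26.5 CPM in any library of the 6 other populations. *Trem2* had 0 UMIs in 488 astrocytes, which allows a share of up to 0.615% of nuclei with a UMI and a level of up to 2.47 CPM, and 0 UMIs in 291 vascular nuclei, which allows up to 1.03% of nuclei. *Tyrobp* had 0 UMIs in the same astrocytes and in 660 OPCs, which allows up to 0.455% of OPCs. Of all their UMIs in the kept nuclei, microglia held 83.8% for *Ctss*, 76.6% for *Trem2*, 66.1% for *Tyrobp*, 64.5% for *C1qb*, 64.3% for *C1qc* and 54.2% for *C1qa*. These limits and shares cover counting error only.

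*Mrc1* was at 0 to 70.3 CPM outside microglia and macrophages, the highest being 14 UMIs in the vascular cells of CrT-KO 1, where 3 nuclei held them. *Cst3* and *Apoe* were found more widely. Astrocytes had 284, 262, 186 and 170 CPM of *Cst3* and 474, 330, 310 and 218 CPM of *Apoe*. Vascular cells had 145 to 305 CPM of *Cst3* and 136 to 231 CPM of *Apoe*. Neurons had the lowest levels, with 10.0 to 16.1 CPM of *Cst3* in excitatory and 16.3 to 27.7 CPM in inhibitory neurons. Because neurons were many and RNA-rich, they still held a large part of the molecules. Microglia gave 19.6% of the 4973 *Cst3* UMIs and excitatory neurons 29.2%, and of the 3159 *Apoe* UMIs macrophages gave 6.55% and excitatory neurons 22.6%. Unnamed clusters held another 12.7% of the *Cst3* and 11.7% of the *Apoe* UMIs. Most of their nuclei scored highest for excitatory markers, so the excitatory shares are low estimates.

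In droplet data RNA free in the suspension gives UMIs in nuclei that do not express a gene. It is taken here to add a like number to each nucleus, so *Cst3* and *Apoe* were also counted per 100 nuclei. Oligodendrocytes had 6.44 to 10.7 *Cst3* UMIs per 100 nuclei, and excitatory neurons, with several times as many UMIs per nucleus, had 7.64 to 14.0. *Apoe* had 5.99 to 12.4 per 100 oligodendrocytes and 4.27 to 6.41 per 100 excitatory neurons. *Apoe* in microglia, at 4.29, 7.11, 7.57 and 2.98 per 100 nuclei, was not above the highest oligodendrocyte library, and CrT-KO 2 was below every library of both populations. It was above excitatory neurons of the same library in Control 2 (6.25) and CrT-KO 1 (5.57), and below them in Control 1 (6.41) and CrT-KO 2 (4.27). Whether its share of microglia with a UMI (3.84 to 7.39%) came from free RNA or from expression was not tested. *Cst3* in microglia, at 54.4, 63.1, 35.3 and 30.7 per 100 nuclei, was in every library above all libraries of oligodendrocytes and excitatory neurons. So was *Apoe* in OPCs, at 44.8, 54.3, 30.4 and 16.0.

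**Figure D2:**
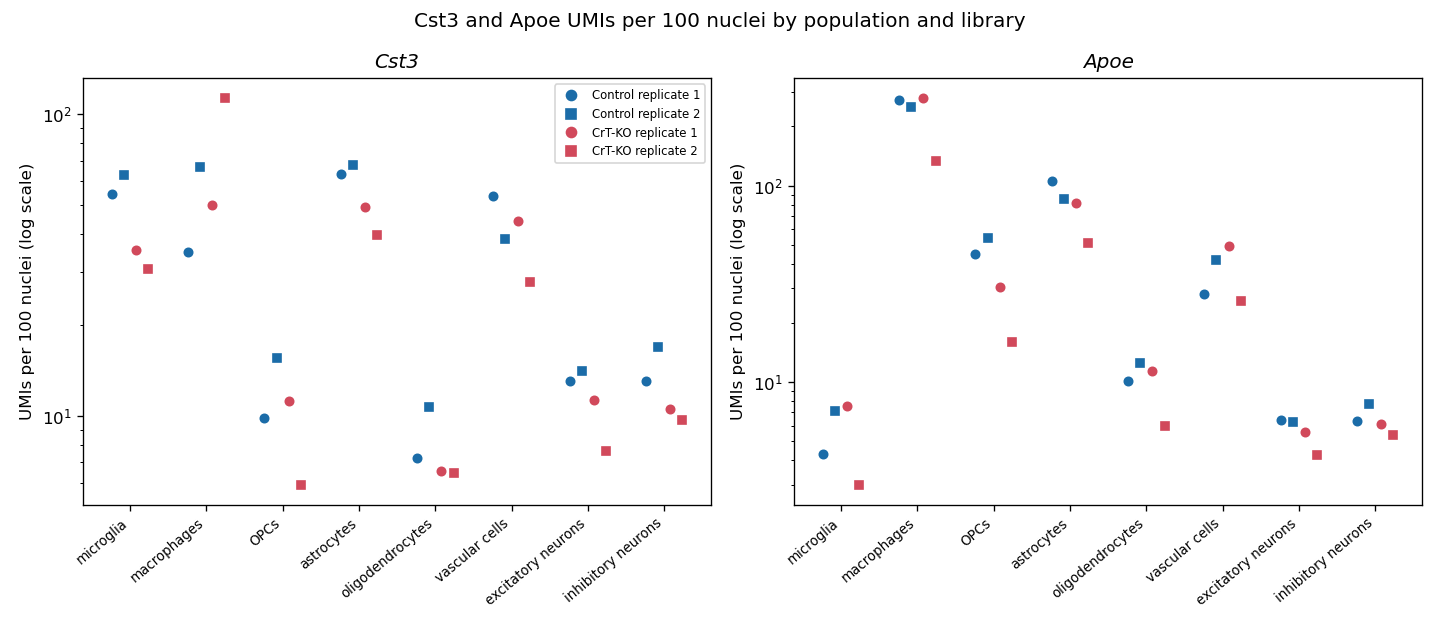
UMIs per 100 nuclei (y axis, log scale) of Cst3 (left) and Apoe (right) in 8 populations (x axis), with 1 point per library. Cst3 stands at 30.7 to 63.1 in microglia against 6.44 to 10.7 in oligodendrocytes, and Apoe in microglia (2.98 to 7.57) does not exceed the highest oligodendrocyte library (12.4).

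The comparison of CrT-KO with Control libraries asked which of these genes differ with loss of the creatine transporter. For this the UMIs of a population were added up within each library and fitted over all genes with edgeR. Log2 fold changes are CrT-KO against Control, and a gene was called at an adjusted p under 0.1. In microglia and macrophages together 2 of 9 members were called, *Cst3* and *Mrc1*, both lower, against 3 of 7266 genes (0.0413%). In microglia alone 1 of 9 was called, *Cst3*, against 2 of 7253 genes (0.0276%). In microglia and macrophages together both CrT-KO libraries were below both Control libraries for 6 of 9 members (17.8% of all tested genes), and in microglia for 5 of 9 (18% of all tested genes). The median log2 fold change of the 9 members was -0.38 in both fits, and that of all tested genes was -0.0067 and -0.0043. All of these counts and the medians include the differences by which the genes were chosen, so nothing is read from them.

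The pair of inhibitor and protease was *Cst3*, whose protein is secreted, and *Ctss*. In microglia *Cst3*, at 571 ± 35.0 CPM in Control and 333 ± 0.746 CPM in CrT-KO libraries (SD, n = 2 each), was lower in both CrT-KO libraries than in both Control libraries, with a log2 fold change of -0.78 (SE 0.13) that was -0.84 to -0.70 when each library was left out. Its UMIs numbered 241, 364, 196 and 175. The SD of the CrT-KO libraries is smaller than the counting error of such numbers, so it does not measure how closely replicates agree. The share of microglia with a *Cst3* UMI was 36.3%, 41.8%, 27.2% and 24.6%, and when each nucleus was thinned to 500 UMIs it was 23.3%, 25.1%, 15.5% and 16.0%. In both measures the CrT-KO libraries were below the Control libraries. *Ctss*, at 676 ± 45.9 and 656 ± 99.3 CPM, overlapped between genotypes and had a log2 fold change of -0.04 (SE 0.13, adjusted p = 0.975 by edgeR). Its sign turned when Control 2 or CrT-KO 1 was left out (0.04 and 0.11). Whether the genotype differences of *Cst3* and *Ctss* differed from each other was not tested.

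Subtracting the *Cst3* UMIs per 100 nuclei of oligodendrocytes of the same library, a measure of the background chosen after the data were seen, left 47.1, 52.4, 28.8 and 24.3 UMIs per 100 microglia. The log2 ratio of the genotype means was -0.91 after and -0.83 before this subtraction. With the level of excitatory neurons subtracted instead it was -0.94. *Cst3* was also lower in CrT-KO libraries in the background populations. In oligodendrocytes it had 52.8, 74.5, 44.6 and 50.8 CPM, which did not overlap between genotypes. What part of the difference in microglia the free RNA had was not tested further.

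Of the complement genes, *C1qa* had 134, 103, 86.7 and 62.6 CPM in microglia from 33 to 63 UMIs per library. Both CrT-KO libraries were below both Control libraries, with a log2 fold change of -0.63 (SE 0.23, adjusted p = 0.741 by edgeR). *C1qb* had 165, 165, 127 and 125 CPM (-0.38, SE 0.18, adjusted p = 0.775 by edgeR). *C1qc* had 188, 147, 122 and 129 CPM (-0.39, SE 0.19, adjusted p = 0.778 by edgeR). Summed, the 3 chains had 487, 415, 336 and 317 CPM, or 451 ± 50.6 in Control and 327 ± 13.9 in CrT-KO libraries (SD, n = 2 each). All 3 chains of the complex were lower in both CrT-KO libraries, as were 18% of all tested genes, and none passed the test. With macrophages included *C1qa* had a log2 fold change of -0.77 (SE 0.22, adjusted p = 0.320 by edgeR), *C1qb* one of -0.38 (SE 0.18) and *C1qc* one of -0.35 (SE 0.19). When each library was left out *C1qc* ranged from -0.57 to -0.23 in microglia and from -0.57 to -0.15 with macrophages, and *C1qa* from -0.89 to -0.43 and from -1.09 to -0.53. With doublets kept *C1qa* had an adjusted p of 0.0947 by edgeR in microglia and macrophages. The macrophage cluster of that run held 294 nuclei with a median of 6827 UMIs, against 1004 in the main run.

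The receptor *Trem2* had 70.2, 81.8, 74.8 and 98.7 CPM in microglia, with a log2 fold change of 0.17 (SE 0.24, adjusted p = 0.954 by edgeR), and its adaptor *Tyrobp* had 49.8, 60.5, 54.4 and 49.3 CPM, with one of -0.10 (SE 0.28, adjusted p = 0.975 by edgeR). Both overlapped between genotypes. *Trem2* turned to -0.04 without CrT-KO 2 and *Tyrobp* to 0.07 without Control 2. *Apoe* in microglia, where the part of free RNA was not tested, had 43.0, 67.0, 71.4 and 32.3 CPM. CrT-KO 1 was above and CrT-KO 2 below both Control libraries, and its log2 fold change was -0.10 (SE 0.33, adjusted p = 0.975 by edgeR). It was 0.30 without Control 2 and 0.33 without CrT-KO 2.

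**Figure D3:**
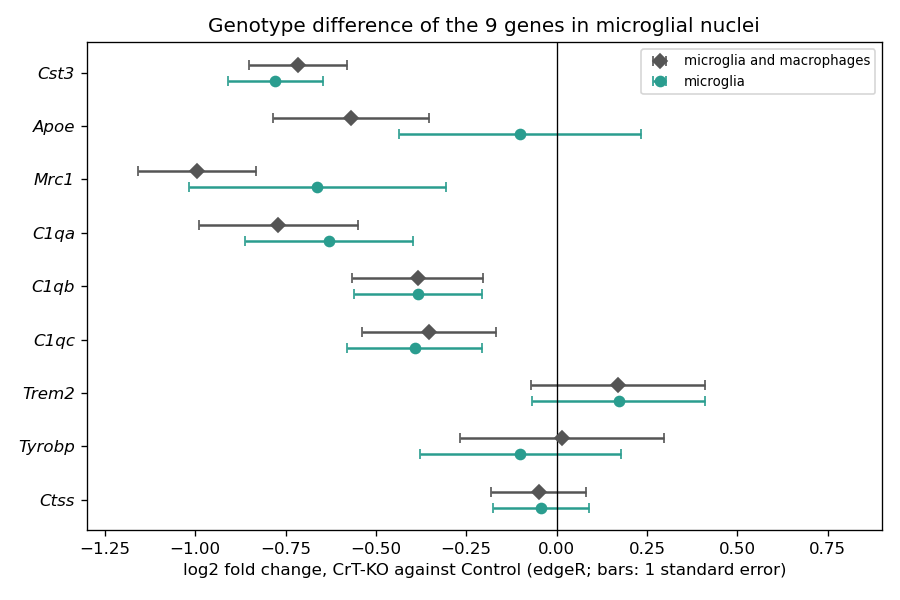
Log2 fold change, CrT-KO against Control, of the 9 genes (x axis, edgeR estimates, bars of 1 standard error) in microglia with macrophages (diamonds) and in microglia (circles). Cst3 lies at -0.71 and -0.78, the C1q genes between -0.77 and -0.35, and Ctss, Trem2 and Tyrobp within 0.17 of 0.

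The share of microglia with at least 2 of the 9 genes detected was 41.8% and 50.3% in Control and 35.0% and 30.5% in CrT-KO libraries. At least 1 was detected in 81.0%, 81.6%, 75.3% and 72.5% of microglia. In macrophages at least 2 were detected in 80.0 to 86.7% of nuclei. Median UMIs per microglial nucleus were 970.0, 1029, 1033 and 879.5, so CrT-KO 2, with the lowest shares, was also the shallowest library, and CrT-KO 1 was the deepest. These shares include *Cst3*, which was chosen by its genotype difference in microglia, so nothing is read from their difference between genotypes.

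*Mrc1* depended on which nuclei were counted. In microglia and macrophages together it had 278, 293, 155 and 131 CPM (129, 189, 95 and 71 UMIs), a log2 fold change of -0.99 (SE 0.16), which was -1.12 to -0.88 when each library was left out. Macrophages, which held 4.94%, 5.28%, 3.70% and 3.07% of the UMIs of this class, gave 86.0%, 87.3%, 83.2% and 83.1% of its *Mrc1* UMIs. Macrophages were 4.94%, 4.47%, 3.48% and 2.56% of the class, with 95% Wilson intervals from 3.31 to 7.30% in Control 1 and from 1.56 to 4.19% in CrT-KO 2. The mean share was 1.68 percentage points lower in CrT-KO libraries (-1.68, two-sided exact permutation p = 0.333, the smallest that 4 libraries allow), and -2.14 to -1.22 points when each library was left out.

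Within macrophages the *Mrc1* level was 4838 ± 1.54 CPM in Control and 3518 ± 28.9 CPM in CrT-KO libraries (SD, n = 2 each). These SDs are smaller than the counting error of 59 to 165 UMIs per library, so they do not measure how closely replicates agree. Both CrT-KO libraries were lower, and the log2 fold change of the fit was -0.37 (SE 0.26). In microglia it had 40.8, 39.3, 27.2 and 22.8 CPM from 12 to 24 UMIs per library (-0.66, SE 0.36). The *Mrc1* difference of the class thus came with both fewer macrophages and lower *Mrc1* levels in the CrT-KO libraries of each population. These values are part of the difference by which the gene was chosen and carry no test. The summed macrophage markers in microglia moved the same way, at 367, 350, 321 and 317 CPM. Only 4, 3, 6 and 3 of the 13 markers had a UMI there, and *Lyve1*, *Pf4*, *Ms4a7*, *Cbr2*, *Cd209f*, *Clec10a* and *Siglec1* had none in any library. The part of macrophage RNA in the *Mrc1* values of microglia was not tested. In macrophages 1 of the 3 tested members did not overlap in this direction (17.8% of all tested genes) and 0 of 3 were called, with 0 of 439 genes called (0%) and 33 genes at an unadjusted p under 0.05. DESeq2 also called 0. *Apoe* in macrophages had a log2 fold change of -0.25 (SE 0.40, adjusted p = 0.998 by edgeR), which turned to 0.13 without CrT-KO 2. *Cst3* there was 0.72 (SE 0.50, adjusted p = 0.824 by edgeR) from 8, 18, 10 and 17 UMIs, and its range was 0.02 to 1.22 when each library was left out.

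**Figure D4:**
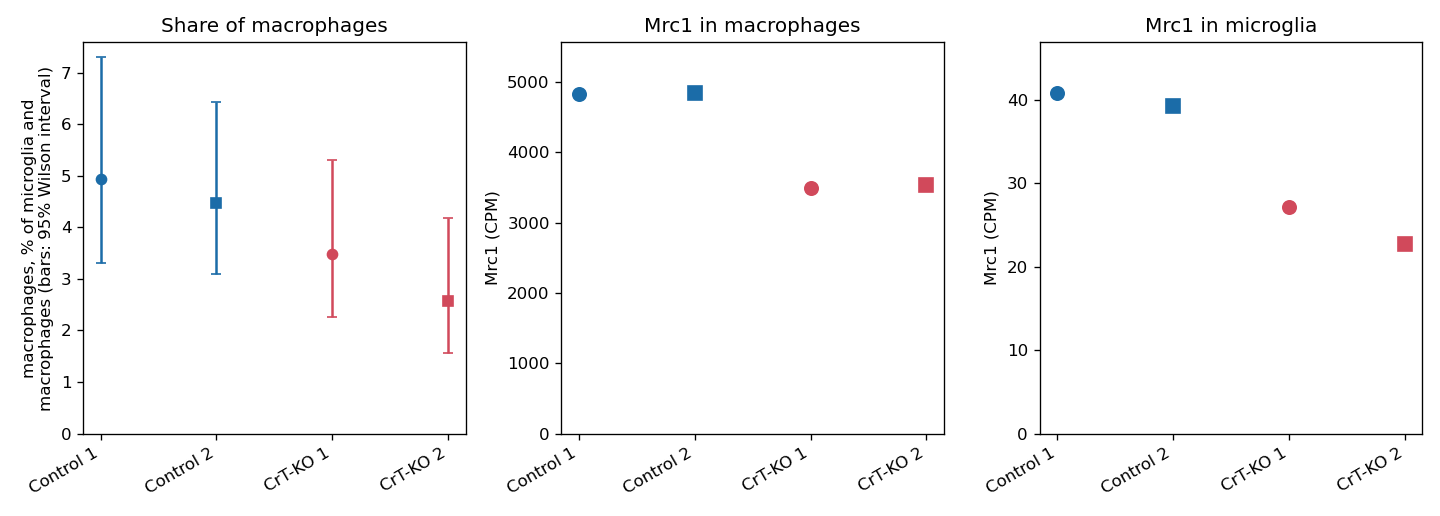
Macrophages as a percentage of microglia and macrophages with 95% Wilson intervals (left), and Mrc1 in CPM in macrophages (middle) and in microglia (right), each by library (x axes). The 2 CrT-KO libraries are the lower ones in all 3 panels, at 2.56 to 3.48% of nuclei, 3498 to 3539 CPM and 22.8 to 27.2 CPM.

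OPCs are the dividing precursors of myelinating oligodendrocytes. *Apoe* in OPCs had 187 and 191 CPM in Control and 103 and 60.7 CPM in CrT-KO libraries, from 87, 101, 49 and 19 UMIs in 194, 186, 161 and 119 nuclei. Both CrT-KO libraries were lower, and the log2 fold change was -1.14 (SE 0.23), or -1.61 to -0.89 when each library was left out. A UMI was found in 36.1%, 37.1%, 26.7% and 12.6% of OPCs. After subtraction of the oligodendrocyte level the UMIs per 100 OPCs were 34.8, 41.9, 19.0 and 9.98, and the log2 ratio of the genotype means was -1.40 against -1.10 before. With the level of excitatory neurons subtracted instead the ratio was -1.24, so its size depended on the background chosen. Astrocyte markers, which mark the cells richest in *Apoe* after macrophages, summed to 835, 848, 945 and 802 CPM in OPCs, all 16 of that list being measured, and macrophage markers to 75.1, 79.3, 71.4 and 57.5 CPM. The former overlapped between genotypes and the latter were lower in CrT-KO libraries, and their part in the *Apoe* values was not tested. Only 2, 4, 2 and 2 of the 13 macrophage markers had a UMI in OPCs. OPC markers summed to 20975 to 23222 CPM. *Cst3* in OPCs had 40.8, 54.8, 37.8 and 22.4 CPM (-0.60, SE 0.36, adjusted p = 0.964 by edgeR, and -1.08 to -0.33 when each library was left out). Neither of the 2 tested members was called in OPCs, with 0 of 5823 genes called (0%) and 303 at an unadjusted p under 0.05, and both did not overlap in this direction (17.7% of all tested genes). DESeq2 also called 0 members.

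In the other populations *Cst3* and *Apoe* were the members measured best, and no member was called by edgeR or by DESeq2. In astrocytes both were lower in both CrT-KO libraries (16.4% of all tested genes were), with log2 fold changes of -0.60 (SE 0.22) for *Cst3* and -0.53 (SE 0.23) for *Apoe*, each with an edgeR adjusted p of 1.00, and 1 of 5026 genes (0.0199%) was called. In oligodendrocytes *Cst3* had -0.45 (SE 0.19, adjusted p = 0.522 by edgeR) and *Apoe* -0.40 (SE 0.18, adjusted p = 0.619 by edgeR), 1 of 2 did not overlap (16% of all tested genes) and 68 of 8877 genes (0.766%) were called. In vascular cells *Cst3* had -0.40 (SE 0.35) and *Apoe* -0.01 (SE 0.36), each with an edgeR adjusted p of 0.999, and both overlapped, while 17.9% of all tested genes did not. There 0 of 3366 genes (0%) were called and 128 had an unadjusted p under 0.05. In excitatory neurons *Cst3* had -0.45 (SE 0.13, adjusted p = 0.321 by edgeR) and *Apoe* -0.29 (SE 0.14, adjusted p = 0.622 by edgeR). In inhibitory neurons *Cst3* had -0.58 (SE 0.14, adjusted p = 0.260 by edgeR) and *Apoe* -0.31 (SE 0.17, adjusted p = 0.967 by edgeR). The 8064 inhibitory nuclei included a cluster of 2191 with the striatal genes *Drd2*, *Adora2a* and *Rgs9* among its leading genes. Other clusters of the class were led by *Baiap3* (1311 nuclei), *Lgr6* (624) and *Drd3* (361). Values of inhibitory neurons are therefore not those of cortical interneurons alone. When each library was left out *Cst3* ranged from -0.66 to -0.16 in oligodendrocytes and from -0.73 to -0.13 in vascular cells, and *Apoe* from -0.76 to -0.10 in oligodendrocytes, from -0.83 to -0.33 in astrocytes and from -0.45 to -0.17 in inhibitory neurons. At an unadjusted p under 0.05 there were 2 members in astrocytes, 2 in oligodendrocytes, 0 in vascular cells, 1 in excitatory and 1 in inhibitory neurons, beside 226 of 5026, 653 of 8877, 128 of 3366, 1160 of 13514 and 662 of 12829 genes in all.

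*Cst3* had a negative estimate in each of these populations but macrophages, and *Apoe* in all 8, and these populations come from the same 4 animals and suspensions. In all named nuclei together *Cst3* had 1056, 1498, 1007 and 782 UMIs (log2 fold change -0.54, SE 0.13). *Apoe* had 667, 927, 738 and 457 UMIs (-0.46, SE 0.15), and neither gene was called. These sums include the microglia and OPCs by whose differences the genes were chosen, so nothing is read from them. Whether the difference in microglia was larger than in the other populations was not tested.

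**Figure D5:**
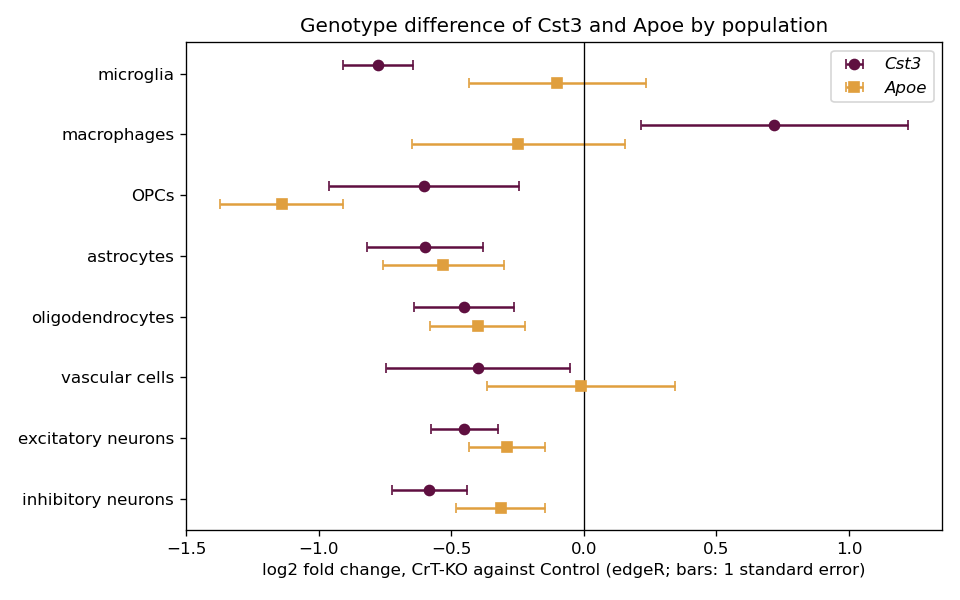
Log2 fold change, CrT-KO against Control, of Cst3 and Apoe (x axis, edgeR estimates, bars of 1 standard error) in 8 populations. Cst3 lies between -0.78 and -0.40 except in macrophages (0.72), and Apoe has its lowest value in OPCs (-1.14).

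Neurons held few UMIs of the other members, in at most 1.00% of nuclei in any library, and the part of free RNA in them was not tested. In excitatory neurons 7 members passed the filter on low counts and 0 were called, with 23 of 13514 genes (0.17%) called. *Cst3*, *Apoe* and *C1qc* were lower in both CrT-KO libraries, 3 of 7 members against 28.5% of all tested genes. *Mrc1*, *Ctss* and *C1qb* were higher in both, 3 of 7 against 11.5%. *Mrc1* had 17, 16, 22 and 27 UMIs there (0.50, SE 0.36, adjusted p = 0.763 by edgeR), *Ctss* 16, 22, 27 and 27 (0.44, SE 0.33, adjusted p = 0.780 by edgeR) and *C1qb* 6, 16, 20 and 16 (0.63, SE 0.46, adjusted p = 0.766 by edgeR). In inhibitory neurons 5 members passed the filter and 0 were called (0.0857% of 12829 genes were), and 3 of 5 were lower in both CrT-KO libraries, against 18.6% of all tested genes.

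The genes that work with the members were read from the same fits as 6 lists. In microglia and macrophages together edgeR called 0 genes of complement (12 of 27 tested), lysosome (29 of 38), lipoprotein (13 of 29), Trem2 and Tyrobp signalling (22 of 27), homeostatic microglia (15 of 15) and disease-associated microglia (9 of 25), and DESeq2 also called 0. At an unadjusted p under 0.05 there were 0, 2, 2, 1, 0 and 0 genes, beside 466 of all 7266 tested, and the list medians were 0.02, -0.02, -0.07, -0.08, -0.01 and -0.03, beside -0.01 over all tested genes. In microglia alone edgeR also called 0 genes of each list, with 2, 2, 2, 0, 0 and 0 at an unadjusted p under 0.05 beside 463 of all 7253 tested, and medians from -0.10 (lysosome) to 0.09 (complement). The homeostatic genes of microglia, among them the markers by which the nuclei were named, had a median of -0.02.

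The genes named from these lists by rule were those with the largest rise or fall at an unadjusted p under 0.05. *Gusb*, the lysosomal beta-glucuronidase, had 59, 60, 44 and 44 UMIs in microglia and macrophages (-0.50, SE 0.23, adjusted p = 0.746 by edgeR). *Soat1*, which esterifies cholesterol for storage, had 52, 49, 30 and 37 UMIs (-0.66, SE 0.26, adjusted p = 0.593 by edgeR). *Abcg1*, which exports cholesterol to lipoproteins, had 29, 43, 58 and 54 UMIs (0.58, SE 0.24, adjusted p = 0.632 by edgeR). Both CrT-KO libraries had fewer *Soat1* and more *Abcg1* UMIs than both Control libraries, and neither gene passed the test. *Vav3*, an exchange factor downstream of receptors that signal through SYK, had 32, 37, 21 and 22 UMIs (-0.74, SE 0.30, adjusted p = 0.631 by edgeR). In microglia alone the complement inhibitor *Cd46* had 35, 32, 19 and 26 UMIs (-0.66, SE 0.31) and *Csmd1* 730, 918, 1228 and 940 UMIs (0.30, SE 0.12), with edgeR adjusted p-values of 0.778 and 0.741.

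In OPCs edgeR called 0 genes of the 6 lists too, with 7, 12, 9, 4, 2 and 5 genes tested in the same order, and DESeq2 also called 0. The genes at an unadjusted p under 0.05 numbered 1, 1, 0, 1, 0 and 1, beside 303 of all 5823 tested. Of these *Lamp1*, a lysosome membrane protein, had 19, 19, 6 and 9 UMIs (-0.98, SE 0.45) and *Fth1*, the ferritin heavy chain, 26, 24, 13 and 10 UMIs (-0.78, SE 0.35). *Mertk*, a receptor for apoptotic cells, had 191, 298, 273 and 217 UMIs (0.37, SE 0.16) and *Cr1l*, a complement regulator, 15, 22, 28 and 19 UMIs (0.68, SE 0.32). The edgeR adjusted p was 0.954 for each of these 4 genes. In oligodendrocytes the lysosome list, picked after its values were seen, had a median of -0.29, and 0 of its 25 tested genes were called. At an unadjusted p under 0.05 there were 8 of 25, beside 653 of all 8877 tested. Both CrT-KO libraries were lower for 13 of the 25 genes and higher for 3, against 16% and 20.6% of all tested genes. The list was not tested as a set.

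Of the list genes called elsewhere, 2 are given here, chosen after their values were seen. *Apod*, another apolipoprotein, fell in CrT-KO oligodendrocytes, with 509, 789, 396 and 497 UMIs (-0.44, SE 0.12, adjusted p = 0.0902 by edgeR). *C1ra*, a protease that acts with C1q, fell in excitatory neurons, with 34, 42, 9 and 12 UMIs (-1.91, SE 0.36, adjusted p = 0.0967 by edgeR). The range of the adjusted p over all alternatives was 0.0289 to 1.00 for *Apod* and 0.00377 to 0.858 for *C1ra*. The call of *Apod* was lost without Control 2 (edgeR adjusted p = 0.388), CrT-KO 1 (0.875) or CrT-KO 2 (0.124), and that of *C1ra* without Control 2 (0.173), CrT-KO 1 (0.858) or CrT-KO 2 (0.701).

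The genes most like each member across the 32 values of 8 populations and 4 libraries were found by Pearson's r of log2(CPM + 1), which is given as a description because the values share libraries and depth. *Trem2* was closest to *Il21r* (0.986), *Havcr2* (0.985) and *Dennd1c* (0.978), and *Ctss* to *Aftph* (0.954), *Spi1* (0.953) and *Lpxn* (0.952). The sum of the C1q genes was closest to *Inpp5d* (0.959), *Tlr7* (0.956) and *Arhgap45* (0.943), and *Tyrobp* to *A630001G21Rik* (0.949), *Ttc7* (0.899) and *Mapk14* (0.896). *Cst3* was closest to *Notch2* (0.964), *Nfe2l2* (0.952) and *Aff1* (0.945), *Mrc1* to *Rbpj* (0.935), *Dclre1c* (0.928) and *Sbf2* (0.911), and *Apoe* to *Ncor1* (0.880), *Dab2* (0.864) and *Dnajc3* (0.856). The 7 lists of 5 nearest genes had no gene in common.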

How the data were processed

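Nuclei of 2 Control and 2 CrT-KO mice were profiled by droplet snRNA-seq after sorting by flow cytometry. The authors deposited raw UMI counts per gene and nucleus, made with Cell Ranger 3.1.0 on GRCm38 (mm10) treating each gene from start to end as 1 exon, so that unspliced RNA was counted too. The submitters' processing notes also name FastQC and Seurat 3.1.4, and use of the strand in counting is not given in the sources used here. The deposited counts hold no cell type names. Because the names were made anew, a difference from the study can be due to naming.

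Doublets were removed per library with Scrublet in scanpy 1.11.5 (1236 nuclei, 2.91 to 4.17% per library). After scaling each nucleus to 10000 counts and a log transform, 3000 variable genes without the 9 members, 30 principal components and 20 neighbours entered Leiden clustering (igraph 0.11.9, resolution 1.0). Of 35 clusters 28 were named from 156 markers, with at least 20 nuclei and at least 3 markers each detected in 10% of nuclei, thresholds set after the matrices were seen. The other 7 clusters (5101 nuclei) stayed unnamed and entered no test. CPM are UMIs scaled to 1000000 UMIs of a population in a library, and shares have 95% Wilson intervals, which cover counting error only. A count of 0 was given a limit of 3 counts.

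For each population the UMIs of a library were added up and tested with edgeR 4.0.16 (R 4.3.3, quasi-likelihood, TMM, filterByExpr, Benjamini-Hochberg over all genes, threshold 0.1, the study's). Each standard error is the size of the fold change divided by the root of F, and nuclei were not treated as replicates. Simulated counts with known changes were used to test the fit. The alternatives were DESeq2 1.42.0, no TMM, no filter, a replicate block, each library left out, doublets kept, members in clustering and a threshold of 0.05. The members and gene lists were chosen with earlier results of these data known. List genes were named by rule as every called gene, or the largest rise and fall at an unadjusted p under 0.05, in microglia, microglia with macrophages and OPCs. The result of 1 called list gene is not reported here. Coordinates are from GENCODE vM21 (21816 of 21933 identifiers matched). Scripts ran in Python 3.11.15 (matplotlib 3.10.9, scikit-learn 1.9.0, pandas 2.3.3, scipy 1.17.1, numpy 2.4.6).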

Additional observations from a re-analysis of the deposited data

Results flagged for a closer look

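For *Mrc1* the CrT-KO libraries lay on opposite sides of the Control libraries in different populations. Both were above in excitatory neurons (log2 fold change 0.50) and both were below in microglia and macrophages together (-0.99), microglia (-0.66), macrophages (-0.37) and inhibitory neurons (-0.62). *C1qb* did the same, with 0.63 in excitatory neurons against -0.38 in microglia and macrophages together and -0.38 in microglia alone. The difference between populations was not tested for either gene, and both had 6 to 27 UMIs per library in excitatory neurons.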

How the results depend on the processing

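Of 409 fold changes of members over 41 pairs of gene and population and all alternatives, 370 kept their direction and side of the threshold, 5 lost a call, 12 gained one and 22 turned sign, in 13 pairs. The member calls in microglia and macrophages went from 2 (3 of 7266 genes called in all) to 0 with DESeq2 (0 of 7266). They were 3 with doublets kept (26 of 9093). Those in microglia went from 1 (2 of 7253) to 0 with doublets kept (0 of 7360). Members called went from 0 to 1 in OPCs with no filter (6 of 13921 genes called in all), with the replicate block (10 of 5823) and with doublets kept (9 of 6730). The same change was seen in macrophages with doublets kept (6 of 6022) and in excitatory neurons with the replicate block (469 of 13514). Inhibitory neurons also went from 0 to 1 with no filter (45 of 17544) and with the replicate block (124 of 12829). In microglia, with or without macrophages, in OPCs and in inhibitory neurons, member calls also changed when a library was left out. With doublets kept the macrophage cluster grew to 294 nuclei, with a median of 6827 UMIs per nucleus against 1004 in the main run. *Mrc1* was found in 26.2% of its nuclei against 77.6%, so macrophage values with doublets kept come from another set of nuclei. The calls of *Cst3*, *Mrc1* and *Apoe* above include the differences by which the genes were chosen, so nothing is read from them.

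The genes called in the 6 lists went from 2 to 0 in oligodendrocytes with DESeq2, without TMM and with doublets kept, to 1 with members in clustering and at a threshold of 0.05, and were 0 to 1 without one library. In excitatory neurons they went from 1 to 0 with DESeq2, with no filter, with doublets kept, with members in clustering and at 0.05, to 5 with the replicate block, and were 0 to 1 without one library. They went from 0 to 1 in OPCs with no filter and in astrocytes and inhibitory neurons with the replicate block, and were 0 to 1 without one library in microglia, macrophages, astrocytes and inhibitory neurons. The cause was not tested for any of these.

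Signs turned with doublets kept for *Tyrobp* (-0.063) and *Trem2* (-0.010) in microglia and macrophages, *Cst3* in the enlarged macrophage cluster (-0.48) and *Apoe* in vascular cells (0.092, and 0.018 with no filter). Without one library the log2 fold change ranged, in microglia and macrophages, from -0.22 to 0.11 for *Ctss*, -0.13 to 0.23 for *Tyrobp* and -0.039 to 0.38 for *Trem2*. In microglia it ranged from -0.21 to 0.11 for *Ctss*, -0.22 to 0.070 for *Tyrobp*, -0.038 to 0.37 for *Trem2* and -0.80 to 0.33 for *Apoe*. It ranged from -0.91 to 0.13 for *Apoe* in macrophages, -0.49 to 0.29 for *Apoe* in vascular cells, -0.23 to 0.72 for *C1qa* in excitatory neurons, and -0.73 to 0.064 for *Ctss* and -0.70 to 0.40 for *C1qb* in inhibitory neurons.

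Replicate numbers are shared by the genotypes in the labels. The deviations of same-numbered libraries correlated at -0.06 to 0.16 over genes. With 2 pairs of libraries these values cannot decide whether the numbers pair the animals, and the main fits used no pairing. With the replicate block the genes called went from 68 to 127 in oligodendrocytes, from 23 to 469 in excitatory and from 11 to 124 in inhibitory neurons. With 12 to 24 *Mrc1* UMIs per library in microglia and 15 to 27 macrophages per library, depth limits the values of these populations most.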
